A study of Homo sapiens with 6 samples.

Results

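ADP-ribose hydrolases are enzymes that remove ADP-ribose from proteins or cut it there, and the genes of 8 of them were followed here together with PARGP1, a pseudogene of PARG, and UNC5CL, a neighbour that shares annotated exons with OARD1. The 10 genes were chosen by symbol, with earlier results of these data known, and found by Ensembl identifier among the 60708 genes of the count tables. The tables come from U2OS cells, an established human osteosarcoma line, wild type in all 6 libraries. The 3 DMSO libraries came from cells kept in the solvent for 4 days. The 3 PARGi libraries came from cells kept for 4 days in 25 µM PDD00017273, a compound that blocks PARG, the poly(ADP-ribose) glycohydrolase. The samples are described as biological triplicates, of a single cell line and without a knockout or a second inhibitor.

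Protein ADP-ribosylation is built by PARP enzymes, which transfer ADP-ribose from NAD to proteins singly or as long chains. PARG cuts the bonds between the units of a chain and leaves the last unit on the protein. That last unit is removed by enzymes that differ in the amino acid they act on: TARG1, the product of OARD1, and the macrodomain proteins MACROD1 and MACROD2 act on acidic residues, ARH3 (gene ADPRS) on serine and ARH1 (gene ADPRH) on arginine. The series title concerns PARG and the proteasomal breakdown of the TARG1 protein, and the counts show only the transcripts of these genes.

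In PARGi, 2 of the 10 genes changed and both were lower: OARD1 fell by 11.6% and UNC5CL fell by 46.5%. The other 8 genes, PARG among them, did not pass the threshold. Passing here means a Benjamini-Hochberg adjusted p under 0.05 over all 20409 genes tested in edgeR's quasi-likelihood fit. By the same threshold 24.3% of all tested genes passed, 11.0% as lower and 13.2% as higher, so the share of these genes that passed, 20%, was close to that of genes in general. The balance of directions depends on the scaling: 45.5% of all calls were lower, against 59.5% with upper-quartile scaling. The 3 PARGi libraries did not overlap the 3 DMSO libraries for 5 of the 10 genes, against 38.0% of all tested genes. In RNA from whole cultures, fewer cells that express a gene and less of its RNA per cell cannot be told apart.

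The libraries held between 60286931 and 80605145 counts. Levels are given as CPM, which relates counts to the TMM-scaled size of the library, with scaling factors between 0.9953 and 1.007. Mesenchymal and osteoblast-lineage genes were abundant, with 2476 ± 57.7 CPM of VIM and 83.3 ± 1.14 CPM of RUNX2 in DMSO (SD, n = 3). Of 5 genes of other cell types, CD3E had 2 counts in 1 library and none in the other 5, and these 5 genes together summed to 5.53 to 6.19 CPM in DMSO and 5.33 to 5.93 CPM in PARGi. Of the 5 mesenchymal genes, which summed to 9887 to 10680 CPM in DMSO and 9977 to 10070 CPM in PARGi, RUNX2 (log2 fold change -0.27, edgeR adjusted p = 4.96e-08) and SPARC (-0.083, adjusted p = 0.00653) were lower in PARGi, and VIM, FN1 and COL1A1 did not pass. Of the 4 tested genes of other cell types, the epithelial gene CDH1 was higher (0.67, edgeR adjusted p = 0.0104), from 0.718 to 1.14 CPM. EPCAM, also epithelial, had the opposite sign and did not pass (-0.22, adjusted p = 0.0912 by edgeR), nor did PTPRC and PECAM1. Their part in the results below was not tested.

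The start regions of the genes at the centre of the comparison are shown first, because OARD1 and UNC5CL, which both fell, have annotated starts of their own 33393 bases apart. The sequences are from RefSeq (GRCh38.p14), all from the minus strand, from 250 bases before to 50 bases after a start: chr6:41072565-41072864 for OARD1, chr6:41039172-41039471 for UNC5CL and chr10:49941978-49942277 for PARG. RefSeq gives OARD1 4 such windows, and the one printed is that which reaches into the window of NFYA. Capitals mark matches, on either strand, to 4 short motifs. CCAAT is the box bound by NF-Y. The GC box was searched as GGGCGG. The core of ETS-type sites was searched as CCGGAA. A box for TBP was searched as TATAAA.
OARD1: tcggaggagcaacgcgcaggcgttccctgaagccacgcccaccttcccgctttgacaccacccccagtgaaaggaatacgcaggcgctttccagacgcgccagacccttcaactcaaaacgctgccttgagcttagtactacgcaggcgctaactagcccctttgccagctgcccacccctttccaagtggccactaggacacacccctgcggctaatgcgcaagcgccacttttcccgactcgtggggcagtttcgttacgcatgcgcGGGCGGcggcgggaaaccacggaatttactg
UNC5CL: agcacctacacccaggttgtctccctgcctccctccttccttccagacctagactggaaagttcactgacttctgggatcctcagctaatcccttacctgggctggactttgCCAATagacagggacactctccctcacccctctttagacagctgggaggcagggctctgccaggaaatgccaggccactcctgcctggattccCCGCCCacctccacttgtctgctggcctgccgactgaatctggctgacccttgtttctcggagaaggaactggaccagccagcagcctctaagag
PARG: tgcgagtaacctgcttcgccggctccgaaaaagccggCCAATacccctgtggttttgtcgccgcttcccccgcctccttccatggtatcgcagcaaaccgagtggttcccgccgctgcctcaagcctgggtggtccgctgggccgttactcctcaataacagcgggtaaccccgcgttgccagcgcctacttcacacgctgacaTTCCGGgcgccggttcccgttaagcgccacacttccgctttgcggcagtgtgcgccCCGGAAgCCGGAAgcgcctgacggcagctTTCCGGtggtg

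The OARD1 and PARG windows were rich in CpG, with 26 and 32 CpG sites, whereas that of UNC5CL held 3. The PARG window held 4 matches to CCGGAA and 1 to CCAAT, the OARD1 window 1 to GGGCGG, and the UNC5CL window 1 each to CCAAT and GGGCGG. No matches overlapped in these 3 windows. Another OARD1 window, at chr6:41072307-41072606, held 5 matches to GGGCGG, 1 to CCAAT and 1 to CCGGAA. Among 35116 windows of all genes, CCAAT was found in 34.6%, GGGCGG in 45.0%, CCGGAA in 17.2% and TATAAA in 11.5%. Windows were found for 9 of the 10 genes, all but PARGP1, and came to 14. The next counts are per gene over all its windows and are not comparable with the shares above, which are per window. CCGGAA was present in at least 1 window of 4 genes, CCAAT of 6, GGGCGG of 8 and TATAAA of none. These are matches of letters and not measured binding sites. NFYA, which encodes a subunit of NF-Y, starts 360 bases from this OARD1 start on the opposite strand, and their windows share 141 bases.

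OARD1 (ENSG00000124596.17) encodes TARG1, which hydrolyses the ester bond between ADP-ribose and glutamate or aspartate. In GENCODE 29 it spans 41033627 to 41097787 of chromosome 6 (minus strand, GRCh38), with 16 transcripts, 13 of them coding. Its level was 41.3, 40.6 and 38.9 CPM in DMSO replicates 1 to 3 and 35.3, 34.6 and 36.7 CPM in PARGi replicates 1 to 3. Every PARGi library was below every DMSO library, and DMSO replicate 3 and PARGi replicate 3 came closest to each other. The difference was a log2 fold change of -0.18 (SE 0.036, 95% confidence interval -0.25 to -0.10, edgeR adjusted p = 0.000642), which passed the threshold in every alternative run. Of all tested genes, whether they passed or not, 33.1% had an estimate farther from 0 in either direction. Among the genes that passed, the median absolute log2 fold change was 0.19.

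UNC5CL (ENSG00000124602.10), at 41026911 to 41039217 of chromosome 6 and also on the minus strand, encodes a death-domain protein related to the UNC5 netrin receptors and is no ADP-ribose hydrolase. Its counts were few, 127, 106 and 145 in the DMSO libraries and 55, 70 and 90 in the PARGi libraries. In CPM these were 2.00, 1.66 and 1.95 against 0.917, 0.947 and 1.12. The lowest DMSO library stood clear of the highest PARGi library. The log2 fold change was -0.90 (SE 0.15, interval -1.21 to -0.60, adjusted p = 6.73e-05 by edgeR). An estimate farther from 0 was found for 1.47% of all tested genes, whether they passed or not.

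**Figure D1:**
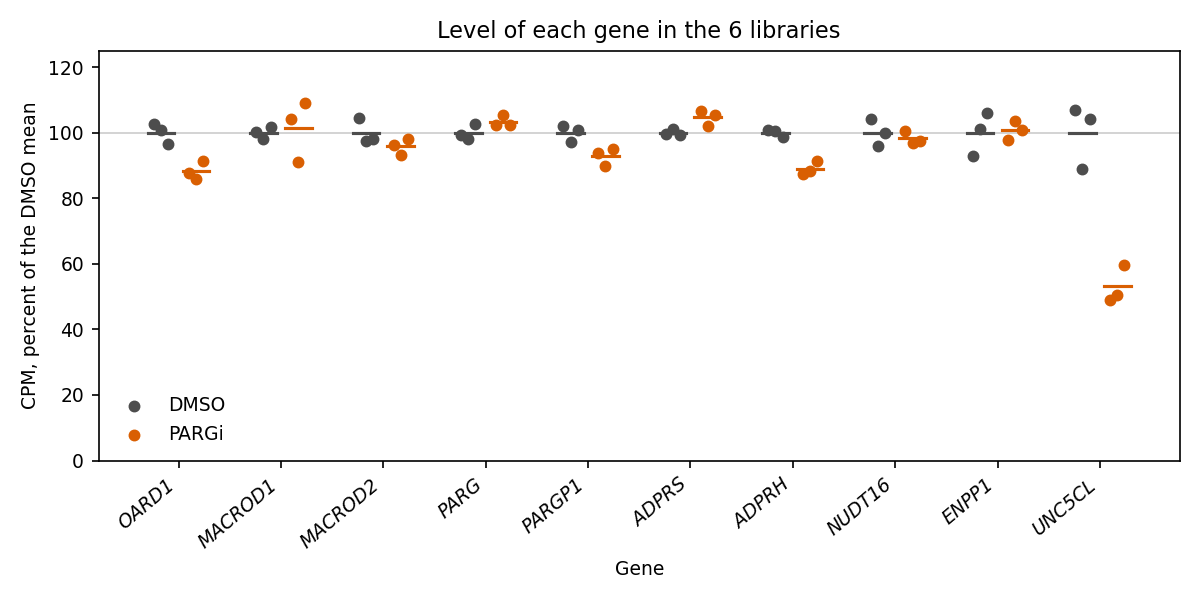
CPM of the 10 genes in each library (vertical axis, percent of the gene's DMSO mean), with DMSO in grey, PARGi in orange and short lines for group means. UNC5CL stood lowest in PARGi, OARD1 was below DMSO in all 3 PARGi libraries, and the points of PARG, MACROD1, MACROD2, NUDT16 and ENPP1 overlapped between groups.

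How far these genes share exons bears on what their counts hold. UNC5CL lies downstream of OARD1 on the same strand, and 747 bases are exonic in both, which is 23.8% of the merged exons of UNC5CL and 11.5% of those of OARD1. All 747 come from 1 of the 16 OARD1 transcripts, OARD1-213, which is annotated as a target of nonsense-mediated decay and runs from 41071217 down to 41033627 across exons of UNC5CL. RefSeq places the end of OARD1 at 41064772 and so shows no such overlap. The remaining 2389 exonic bases of UNC5CL and 5776 of OARD1 are not shared. How reads on the shared bases were assigned was not given in the sources used here.

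**Figure D2:**
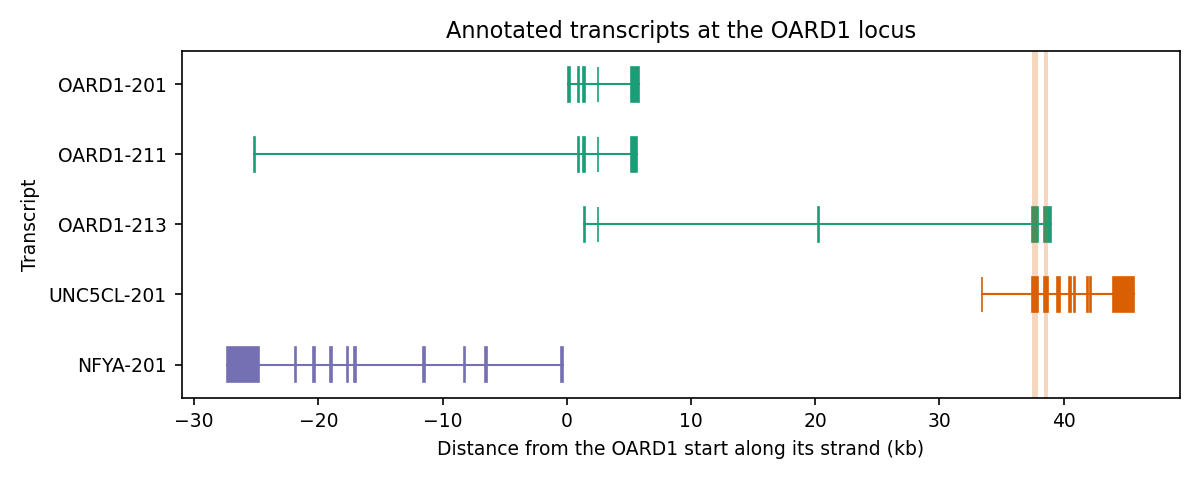
Exons (boxes) of 5 GENCODE 29 transcripts by distance from the OARD1 start (horizontal axis, kb along the OARD1 strand), with NFYA running the opposite way and the bases shared by OARD1-213 and UNC5CL-201 shaded. The shaded exons, 747 bases in all, belong to the only OARD1 transcript that reaches UNC5CL.

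The summed counts of the overlapping genes do not depend on how counted reads were divided between them, though reads dropped as ambiguous would be in neither. The sum of OARD1 and UNC5CL was 43.3, 42.2 and 40.8 CPM in DMSO and 36.2, 35.6 and 37.9 CPM in PARGi, again with no overlap between groups. The change was -13.3% (log2 difference -0.21, exact two-sided permutation test, p = 0.1, the smallest that 3 against 3 libraries can give). UNC5CL was also lower relative to OARD1: its counts were 4.84%, 4.10% and 5.01% of those of OARD1 in DMSO and 2.60%, 2.74% and 3.05% in PARGi. The log2 ratio of UNC5CL to OARD1 differed by -0.73 between groups (exact two-sided permutation test, p = 0.1, the smallest possible), and the libraries did not overlap.

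NFYA shares 75 exonic bases with OARD1 on the opposite strand. The 3 DMSO libraries held 182.5 ± 2.47 CPM of it and the 3 PARGi libraries 176 ± 2.22 CPM (SD), with a log2 fold change of -0.050 that did not pass (SE 0.025, edgeR adjusted p = 0.155). Within 250000 bases of OARD1, ADCY10P1, a pseudogene, was the only tested gene besides NFYA and UNC5CL, and its log2 fold change was -0.049 (SE 0.061, edgeR adjusted p = 0.624). At this locus, then, OARD1 and UNC5CL passed the threshold and the other 2 tested genes did not; whether the genes differ in their response was not tested.

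PARG (ENSG00000227345.9), the gene of the inhibited enzyme, spans 49818279 to 49970203 of chromosome 10 (minus strand). Its level was 43.8, 43.1 and 45.2 CPM in DMSO and 45.1, 46.4 and 45.0 CPM in PARGi. The groups overlapped, because DMSO replicate 3 lay above 2 of the PARGi libraries. The log2 fold change was 0.047 (SE 0.032, edgeR adjusted p = 0.328), and its 95% confidence interval allows a change between -1.37% and 8.16%. PDD00017273 binds the enzyme, and the level of the PARG transcript is no check of the treatment. TIMM23B, a mitochondrial import gene that shares 37 exonic bases with PARG on the opposite strand, did not pass either (6.54 ± 0.178 against 6.70 ± 0.844 CPM, log2 fold change 0.037, edgeR adjusted p = 0.795).

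PARGP1 (ENSG00000239883.8) is a transcribed pseudogene on chromosome 10, from 45854093 to 45972154, and close in sequence to PARG. The transcript PARGP1-201 aligned along its 2286 bases to PARG-201 with 98.9% identity, and 37.6% of the 50-base words of all PARGP1 transcripts also occur in PARG transcripts. The pair below is the ungapped stretch of 120 aligned bases, coding in PARG-201, with the most differences. It covers bases 795 to 914 of PARG-201 and 592 to 711 of PARGP1-201 (GENCODE 29), with the 5 differing bases in capitals, and shows how little separates a read of the gene from a read of its copy.
PARG-201: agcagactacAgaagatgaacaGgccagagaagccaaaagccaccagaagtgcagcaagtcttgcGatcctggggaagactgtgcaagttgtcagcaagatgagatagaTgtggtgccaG
PARGP1-201: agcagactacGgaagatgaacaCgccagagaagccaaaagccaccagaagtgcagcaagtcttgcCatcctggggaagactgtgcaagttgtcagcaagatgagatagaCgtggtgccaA

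No other pair among the 10 genes shared a 50-base word, apart from the overlapping OARD1 and UNC5CL. PARGP1 reached 10.5, 10.0 and 10.4 CPM in the DMSO libraries against 9.69, 9.28 and 9.80 CPM. The PARGi libraries were all lower, but the log2 fold change of -0.11 did not pass (SE 0.056, edgeR adjusted p = 0.183). Of the counts given to PARG and PARGP1 together, PARGP1 took 19.4%, 18.9% and 18.7% in DMSO and 17.7%, 16.7% and 17.9% in PARGi. The summed level does not depend on how counted reads were split within the pair. It was 54.3, 53.1 and 55.5 CPM in the DMSO libraries and 54.7, 55.6 and 54.8 CPM in the PARGi libraries (log2 difference 0.019, exact two-sided permutation test, p = 0.4). Reads dropped because they fit PARG and PARGP1 equally would be in neither count, and so not in the sum.

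OARD1 and PARG, the genes behind the proteins of the series title, were compared as a ratio within each library. The log2 ratio of OARD1 to PARG was -0.082, -0.088 and -0.22 in DMSO and -0.35, -0.42 and -0.29 in PARGi. No PARGi library reached the lowest DMSO value. The difference of -0.23 corresponds to a change of -14.6% in the ratio (exact two-sided permutation test, p = 0.1, the smallest possible).

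The other genes whose enzymes act on acidic residues did not pass. MACROD1, whose product is found in mitochondria (chromosome 11, 63998558 to 64166106), was measured at 11.6, 11.3 and 11.7 CPM (DMSO) and 12.0, 10.5 and 12.6 CPM (PARGi). PARGi replicate 2 was the lowest of the 6 libraries and PARGi replicate 3 the highest, a spread of 9.09% of the mean against 1.73% in DMSO. Its log2 fold change was 0.021 (SE 0.061, edgeR adjusted p = 0.846), with an interval from -6.98% to 10.7%. MACROD2, a gene spread over 2057829 bases of chromosome 20 (13995369 to 16053197), stood at 5.44, 5.07 and 5.11 CPM in DMSO libraries and 5.002, 4.86 and 5.11 CPM in PARGi. The groups overlapped (log2 fold change -0.060, SE 0.076, adjusted p = 0.630 by edgeR). The interval runs from -14.0% to 6.99%.

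ADPRS (chromosome 1, 36088875 to 36093932) encodes ARH3, which removes ADP-ribose from serine, the main target of PARP1 in DNA damage, and can also degrade chains. Its levels were 43.2, 43.8 and 43.1 CPM (DMSO) against 46.3, 44.3 and 45.8 CPM (PARGi). All PARGi libraries were above all DMSO libraries, by a margin smaller than the spread within PARGi. The log2 fold change of 0.067 (SE 0.032) had an unadjusted p of 0.0461 and an edgeR adjusted p of 0.135. The interval of the change was 0.0876% to 9.64%.

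ADPRH (chromosome 3, 119579268 to 119589945) encodes ARH1, which acts on arginine. With 128 to 179 counts per library it held 2.46, 2.45 and 2.41 CPM in DMSO libraries and 2.13, 2.15 and 2.23 CPM in those of PARGi. The groups did not overlap, and the estimate, a log2 fold change of -0.17, was near that of OARD1, but with a standard error of 0.11 it did not pass (edgeR adjusted p = 0.308). Its interval, from -23.9% to 4.44%, includes the change seen for OARD1. An antisense gene that covers 383 of its exonic bases had 0 to 6 counts per library.

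NUDT16 (chromosome 3, 131381671 to 131388830) and ENPP1 (chromosome 6, 131808016 to 131895155) encode phosphodiesterases that cut within ADP-ribose and leave phosphoribose behind; ENPP1 is best known at the cell surface, where it splits nucleotides. NUDT16 was at 43.2, 39.8 and 41.4 CPM in DMSO libraries and 41.8, 40.3 and 40.4 CPM in PARGi libraries (log2 fold change -0.025, SE 0.035, adjusted p = 0.662 by edgeR). ENPP1 was at 14.9, 16.3 and 17.1 CPM in DMSO libraries and 15.7, 16.7 and 16.2 CPM in PARGi libraries (log2 fold change 0.0093, SE 0.051, edgeR adjusted p = 0.924). For both genes the PARGi libraries lay among the DMSO libraries. The intervals ran from -6.56% to 3.34% for NUDT16 and from -6.45% to 8.29% for ENPP1.

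**Figure D3:**
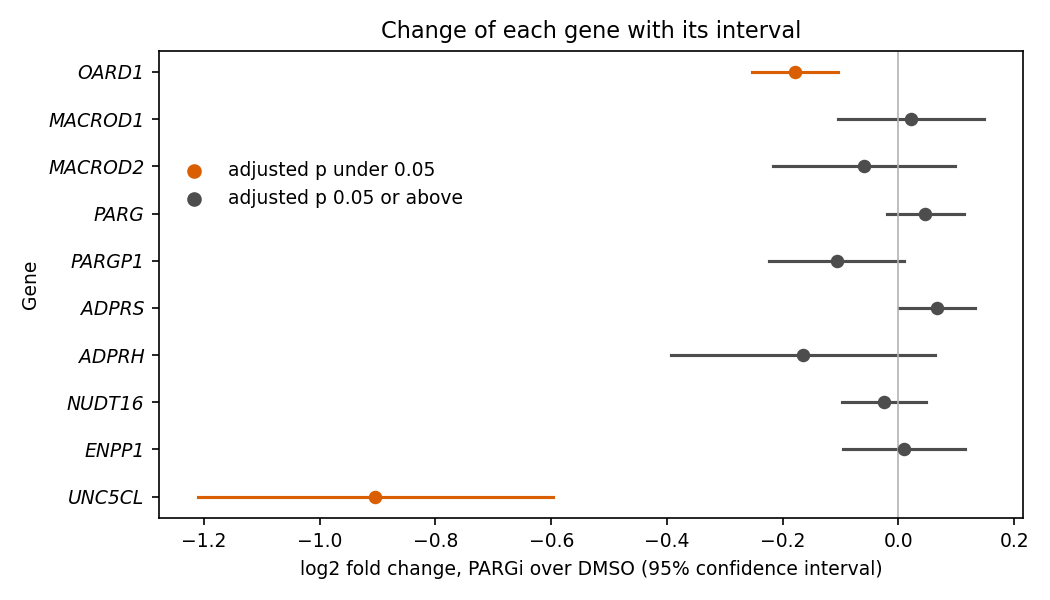
Log2 fold change of each gene (horizontal axis, PARGi over DMSO) with its 95% confidence interval from edgeR, orange where the adjusted p was under 0.05. The interval of UNC5CL, -1.21 to -0.60, lies apart from all others, that of OARD1 lies below 0, and ADPRH has the widest interval of the genes that did not pass.

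Levels of different genes were compared per kilobase of merged exons. By this measure ADPRS was the most abundant in DMSO, at 26.0 ± 0.223 CPM per kb, followed by PARG at 8.58 ± 0.204, OARD1 at 6.17 ± 0.194, NUDT16 at 5.90 ± 0.243 and MACROD1 at 5.52 ± 0.0957 (SD, n = 3 each). PARGP1 (3.21 ± 0.0809 CPM per kb) and ENPP1 (1.62 ± 0.109) were intermediate. UNC5CL (0.597 ± 0.0577), ADPRH (0.528 ± 0.00612) and MACROD2 (0.455 ± 0.0176) were lowest. OARD1 and NUDT16 overlapped between libraries in DMSO, as did UNC5CL and ADPRH, and the other neighbours in the order did not.

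In PARGi, OARD1 (5.45 ± 0.167 CPM per kb) was below NUDT16 (5.81 ± 0.119) in every library, and UNC5CL (0.317 ± 0.0348) was the lowest of the 10. This order depends on the length used. Merged exons of OARD1 come to 6523 bases, and with its longest transcript, 3330 bases, it was second in DMSO at 12.1 ± 0.381 CPM per kb, above PARG at 10.7 ± 0.254. By longest transcript OARD1 also stood above NUDT16 in PARGi, at 10.7 against 6.68 CPM per kb. In DMSO, MACROD1 (9.57 CPM per kb) was then above NUDT16 (6.79), and MACROD2 (1.042) above UNC5CL and ADPRH. ADPRS was the most abundant with either length.

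**Figure D4:**
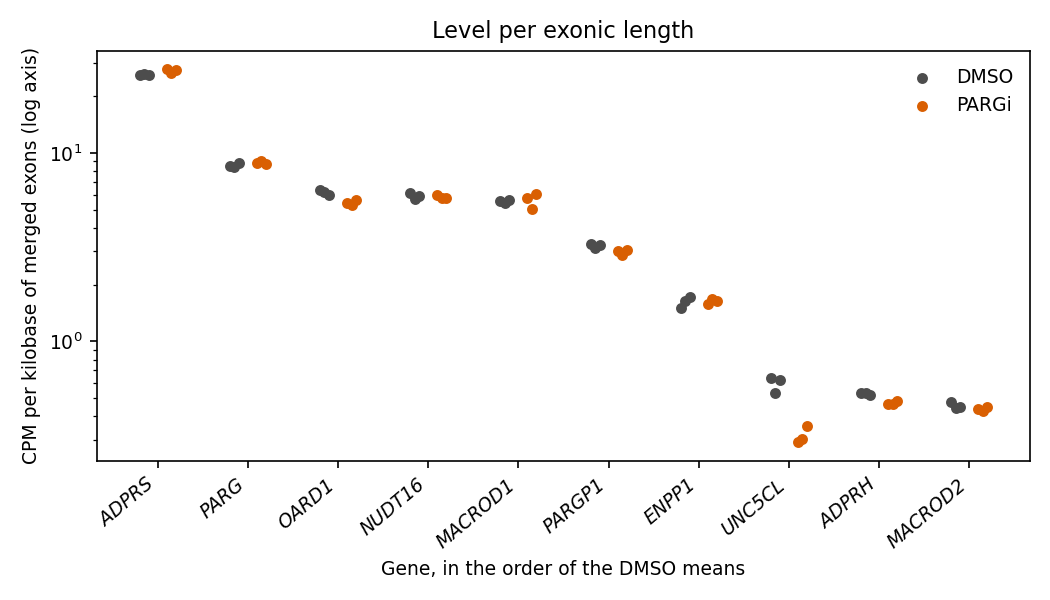
CPM per kilobase of merged exons (vertical log axis) for each gene in the 3 DMSO (grey) and 3 PARGi (orange) libraries, in the order of the DMSO means. ADPRS, at 26.0 CPM per kb in DMSO, stands above the rest, and ADPRH, MACROD2 and UNC5CL lie lowest.

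Genes whose levels followed OARD1 closely over the 6 libraries were PRPF39, ATP5PO, BCAS3 and ATG14. They are among the 5 nearest of 14877 genes by Euclidean distance between mean-centred log2 CPM, with distances of 0.0371 to 0.0412, against 0.238 for the whole profile of OARD1. Their log2 fold changes lay between -0.19 and -0.16, a closeness to OARD1 that follows from how they were chosen. This is a description over 6 libraries that differ in treatment.

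Of the enzymes and cofactors that write ADP-ribose, 17 of 18 listed genes were tested, and 3 rose and 3 fell (35.3%, against 24.3% of all tested genes). Their median log2 fold change was 0.0099, beside -0.0070 over all tested genes. Upper-quartile scaling turned this median to -0.015 and those of the next 2 lists to -0.0071 and -0.0028. PARP12, which attaches single ADP-ribose units at the Golgi, fell from 24.4 ± 0.83 to 21.1 ± 0.209 CPM (log2 fold change -0.21, edgeR adjusted p = 0.000468), and PARP11 fell as well (-0.15, adjusted p = 0.00506). PARP4, the PARP of vault particles, rose from 66.1 ± 1.99 to 73.8 ± 1.78 CPM (0.16, edgeR adjusted p = 0.000278), and TIPARP, a target of the aryl hydrocarbon receptor, rose too (0.26, adjusted p = 0.0034). OARD1, at -0.18, lies among them in size of change.

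Of 13 other macrodomain, NUDIX, ADP-ribosylhydrolase-like and ENPP genes, 12 were tested, and 2 rose and 2 fell (33.3%, against 24.3% of all tested genes), at a median of 0.017. ENPP2, which encodes the secreted enzyme autotaxin, went from 6.29, 6.39 and 6.02 CPM in DMSO to 4.502, 4.14 and 4.44 CPM in PARGi (log2 fold change -0.52, adjusted p = 1.70e-05 by edgeR), while its relative ENPP1 did not pass, a difference that was not tested. NUDT12, an NAD(H) pyrophosphatase, fell at -0.20 (adjusted p = 0.0469). MACROH2A2, a macrodomain histone gene, rose at 0.092 (edgeR adjusted p = 0.0105) and GDAP2 at 0.13 (adjusted p = 0.0175). NUDT12 kept its call in 5 of 13 alternatives, at log2 fold changes between -0.26 and -0.14. It lost it with DESeq2 (-0.20, adjusted p = 0.0831), voom, no count filter, the replicate block (a term for the replicate number) and without DMSO replicate 1, DMSO replicate 2, PARGi replicate 1 or PARGi replicate 2. GDAP2 lost its call with upper-quartile scaling and without DMSO replicate 1 or PARGi replicate 3, and MACROH2A2 with upper-quartile scaling and without PARGi replicate 1. The list then had 2 calls with upper-quartile scaling, without DMSO replicate 1 or without PARGi replicate 1.

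The series concerns breakdown of a protein, and ubiquitin ligases that recognise or modify ADP-ribose were listed for that reason. All 11 were tested, 3 rose and 1 fell (36.4%, against 24.3% of all tested genes), at a median of 0.022. DTX4 rose from 14.4 ± 0.654 to 16.3 ± 0.328 CPM (log2 fold change 0.18, edgeR adjusted p = 0.00695), and RNF166 (0.13, adjusted p = 0.00744) and RNF114 (0.092, adjusted p = 0.0142) also rose. DTX3 fell at -0.12 (edgeR adjusted p = 0.0212). RNF146, the ligase that binds poly(ADP-ribose) through its WWE domain, did not pass at 23.2 ± 0.523 against 23.5 ± 1.12 CPM. DTX3 kept its call in 8 of 13 alternatives (adjusted p up to 0.0788), losing it with no count filter and without DMSO replicate 1, DMSO replicate 2, PARGi replicate 2 or PARGi replicate 3. RNF114 lost its call with upper-quartile scaling and without PARGi replicate 3, and 2 genes of the list passed without that library. The counts of transcripts say nothing of the activity of these ligases.

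**Figure D5:**
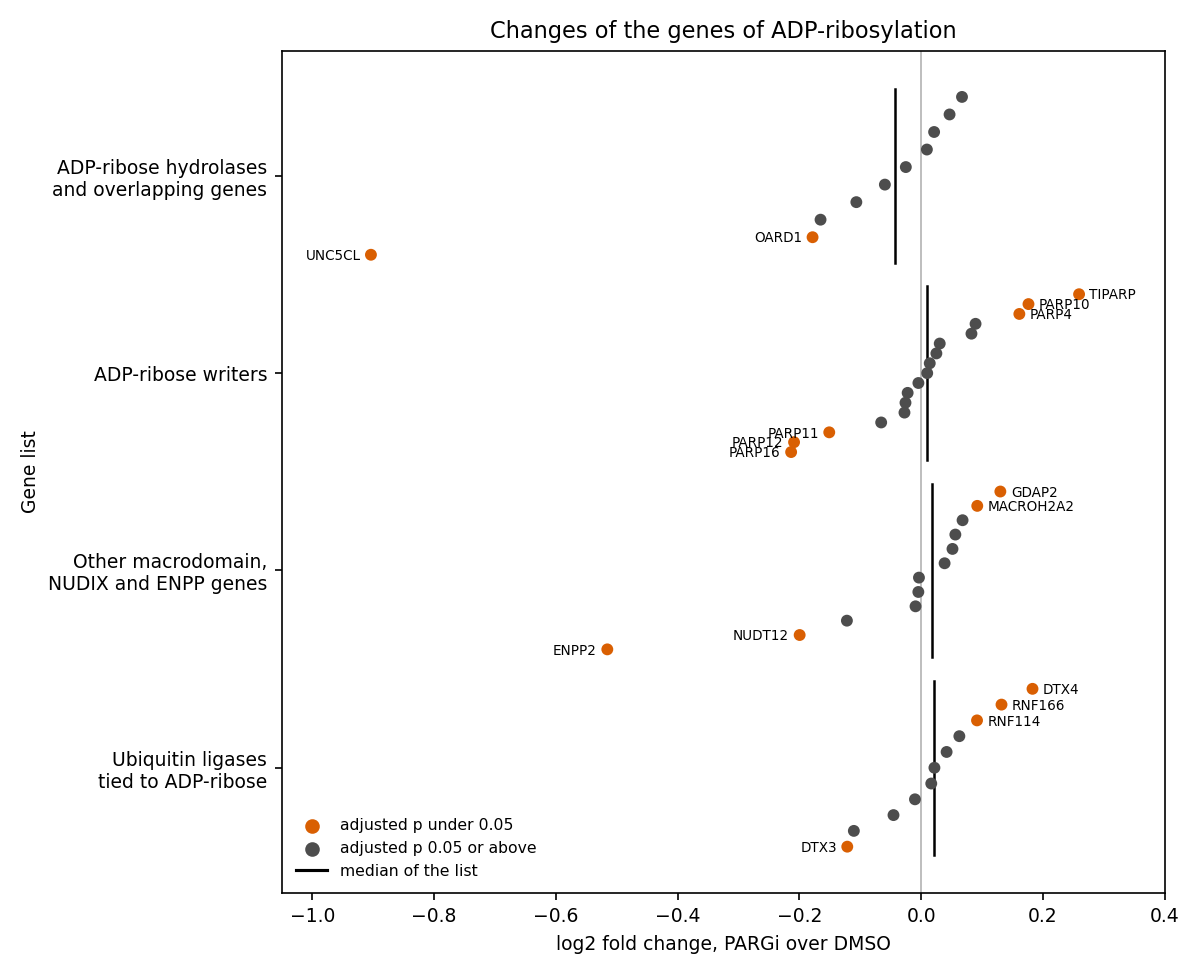
Log2 fold change (horizontal axis, PARGi over DMSO) of each tested gene in 4 lists, with genes past an adjusted p of 0.05 in orange and named, and black lines at the list medians. The medians lie between -0.042 and 0.022, and UNC5CL at -0.90 and ENPP2 at -0.52 stand farthest from 0.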

How the data were processed

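The deposited values are raw read counts per Ensembl gene, 1 column per library. Per the labels' protocols, libraries were made with a stranded total RNA kit. The submitters' processing notes name hg38, cutadapt 1.18, STAR 2.7.3a and SAMtools 1.9, without their roles; the annotation release, the strand setting and the treatment of reads on overlapping genes are not given in the sources used here.

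All 10 genes were matched by identifier. Positions, exons and lengths are from GENCODE 29 (GRCh38), in which 58440 of 60708 identifiers were found, so the authors' release was another; start windows are from RefSeq. The fit covered all 6 libraries: edgeR 4.0.16 (R 4.3.3) with filterByExpr, TMM, glmQLFit and a two-sided glmQLFTest on treatment, adjusted by Benjamini-Hochberg over 20409 genes. Standard errors are the absolute log2 fold change over the square root of F. Sums and ratios were compared by exact permutation. The code was tested on simulated data, in which every planted change was larger in size than that of OARD1. Alternatives were DESeq2 1.42.0, voom in limma 3.58.1, other scalings and filters, a replicate block and each library left out. Per-length levels with the longest transcript, and protein-coding genes alone, were added after the data were seen.

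The 10 genes and the 3 lists were chosen with earlier results of these data known. Named besides the 10 were the 10 cell type markers, up to 4 called genes of each list by smallest p, tested genes that share exons with the 10 above 0.5 CPM on average, and the 5 profiles nearest OARD1, of which 1 is not reported here; ADCY10P1, RNF146 and the antisense gene were named after their values were seen. All 10 genes passed the count filter. The replicate numbers are shared by both groups, but no label ties a number to a shared culture.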

Additional observations from a re-analysis of the deposited data

How the results depend on the processing

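OARD1 kept its direction and its call in all 14 alternatives (log2 fold change -0.20 to -0.16, adjusted p 7.51e-05 to 0.00979), and UNC5CL in all 13 of its own (-1.004 to -0.8547). The number of the 10 genes called was 2 in all 13. PARG passed in none (0.022 to 0.065). With upper-quartile scaling the signs of MACROD1 (-0.0031) and ENPP1 (-0.015) turned, 2 of the macrodomain, NUDIX and ENPP list passed, and 59.5% of all calls were lower in place of 45.5%. Leaving out single libraries gave -0.038 to 0.095 for MACROD1, -0.043 to 0.056 for ENPP1 and -0.053 to 0.0023 for NUDT16, none past the threshold. It gave 4 to 6 calls among the ADP-ribose writers and 2 to 4 in the macrodomain, NUDIX and ENPP list. Among the ubiquitin ligases it gave 2 to 4, and over all genes 3607 to 4848. The cause was not tested. Of the 12 genes named from the lists, 7 stayed past the threshold in every alternative; NUDT12, DTX3, GDAP2, MACROH2A2 and RNF114 did not.

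With the replicate number as a block, 4553 genes passed, OARD1 stayed at -0.18 (edgeR adjusted p = 0.00205), and NUDT12 lost its call. Deviations of same-numbered libraries correlated at -0.0059, 0.016 and -0.0078, so the numbers were not taken to pair samples. An exact sign-flip of the 3 pairs cannot give a p below 0.25, which the log2 ratio of OARD1 to PARG gave. Counts of 55 to 145 per library limit UNC5CL, and 128 to 179 limit ADPRH.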
